A study of Mus musculus with 14 samples.

Results

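The 43 genes described here act in G2 phase and mitosis, the end of the cell cycle, in which a cell with copied DNA builds a spindle and shares its chromosomes between daughter cells. They were chosen by gene symbol, for their known roles and with earlier results of these data known, from 24411 genes in the deposited count tables. All 43 were found, and all passed the filter on low counts in every fit, the lowest count of any of them in any library being 181. The cells were MC-38, a mouse colon cancer line, in 14 libraries of total RNA. Tumour libraries held GFP-expressing MC-38 cells flow sorted from lung tumours on day 30, with 2 libraries each from PAD4 KO mice with laparotomy, PAD4 KO control mice, WT mice with laparotomy and WT control mice. Laparotomy, a surgical opening of the abdomen, took place on days 0 and 10. PAD4, encoded by Padi4, citrullinates histones when neutrophils release neutrophil extracellular traps (NETs), which are webs of chromatin. KO refers to the host mouse alone, since the labels give the cancer cells a WT genotype in every library. Culture libraries came from MC-38 cells given NET chromatin that neutrophils had released in vitro (3 libraries) or grown alone (3 libraries). The labels give neither the age or sex of the mice nor the animal or culture behind each library. The p-values therefore rest on differences between these libraries alone, part of which can be technical. They name no GFP or sorting for the cultures.

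Entry into mitosis is driven by cyclin-dependent kinase 1 bound to cyclin A or cyclin B. Polo and Aurora kinases then build the spindle, and the spindle assembly checkpoint holds back the anaphase-promoting complex until every kinetochore is attached. Most genes of this program are transcribed only late in the cycle, from promoters that carry CCAAT boxes, bound by NF-Y, and a cell cycle genes homology region (CHR) with the letters TTTGAA or TTCGAA, bound by the MuvB complex together with MYBL2 and FOXM1 in cycling cells. In bulk RNA, fewer cells in G2 phase or mitosis cannot be told apart from less of these RNAs per cell.

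RefSeq held a promoter window, from 250 bases before to 50 bases after the gene's start in build GRCm38.p6, for 35 of the 43 genes, and none of the others (Ccna2, Cdc25c, Foxm1, Aurkb, Incenp, Tpx2, Kif20a and Smc4) is covered by what follows. CCAAT, searched on both strands, was present in 26 of the 35 windows (74.3%), against 37.9% of all 27025 promoters in the table and 39.7% of the 8977 promoters of genes tested in culture. At least 2 copies were present in 16 of the 35 windows (45.7%), against 12.2% of all promoters. TTTGAA or TTCGAA, which differ at a single base and were counted as a group on both strands, was present in 28 of the 35 windows (80.0%), against 19.4% of all promoters and 13.4% of those of genes tested in culture. Within 50 bases either side of the start the group was found in 25 of the 35 windows (71.4%), against 5.29% of all promoters. The E2F-like letters TTTGGCGC or TTTCCCGC occurred in 2 of the 35 windows (5.71%), against 1.63% of all promoters, and the forkhead-like letters TGTTTAC occurred in 2 (5.71%), against 3.55%. These matches describe letters in a window and do not show binding. The 200 bases before the start are printed for 7 genes, chosen after their values were seen, that differ in both motifs and in how their RNA moved. Each runs 5′ to 3′ on the gene's own strand, and capitals mark both the CCAAT boxes and the CHR letters, read on either strand.
Mki67 (chr7:135716380-135716579, - strand): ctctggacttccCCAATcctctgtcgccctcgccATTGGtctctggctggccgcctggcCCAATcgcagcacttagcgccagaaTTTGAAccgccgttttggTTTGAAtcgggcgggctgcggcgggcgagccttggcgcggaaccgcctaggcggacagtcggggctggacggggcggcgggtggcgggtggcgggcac
Top2a (chr11:99024190-99024389, - strand): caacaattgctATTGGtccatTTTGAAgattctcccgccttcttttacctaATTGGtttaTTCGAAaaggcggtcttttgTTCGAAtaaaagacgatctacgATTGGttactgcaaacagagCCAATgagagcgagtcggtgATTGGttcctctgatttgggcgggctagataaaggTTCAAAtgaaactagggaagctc
Cdk1 (chr10:69352913-69353112, - strand): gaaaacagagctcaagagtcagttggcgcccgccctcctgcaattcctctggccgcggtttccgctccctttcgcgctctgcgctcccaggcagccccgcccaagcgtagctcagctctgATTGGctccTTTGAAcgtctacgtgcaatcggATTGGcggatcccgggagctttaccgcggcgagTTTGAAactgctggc
Bub1 (chr2:127831860-127832059, - strand): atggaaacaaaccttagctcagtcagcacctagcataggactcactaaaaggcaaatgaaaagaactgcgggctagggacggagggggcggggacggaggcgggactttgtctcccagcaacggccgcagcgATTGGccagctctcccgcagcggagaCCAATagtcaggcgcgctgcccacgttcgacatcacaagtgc
Cdc25b (chr2:131186748-131186947, + strand): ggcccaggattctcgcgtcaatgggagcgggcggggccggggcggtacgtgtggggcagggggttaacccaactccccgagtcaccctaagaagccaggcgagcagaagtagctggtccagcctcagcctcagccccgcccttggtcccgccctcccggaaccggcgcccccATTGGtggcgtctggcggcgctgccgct
Nusap1 (chr2:119618098-119618297, + strand): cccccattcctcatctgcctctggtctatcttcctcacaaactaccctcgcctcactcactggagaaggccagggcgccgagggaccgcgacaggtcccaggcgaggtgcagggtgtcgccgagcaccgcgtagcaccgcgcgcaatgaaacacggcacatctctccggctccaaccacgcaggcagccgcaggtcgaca
Cdc20 (chr4:118437344-118437543, - strand): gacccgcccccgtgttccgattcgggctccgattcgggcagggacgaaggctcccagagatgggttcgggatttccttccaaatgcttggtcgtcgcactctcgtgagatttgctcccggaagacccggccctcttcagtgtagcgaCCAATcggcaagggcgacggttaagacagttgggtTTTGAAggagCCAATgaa
The Top2a stretch held 5 CCAAT boxes and 4 CHR matches, and the Mki67 stretch held 3 and 2. The Cdk1 stretch held 2 of each, while those of Bub1 and Cdc25b held CCAAT but no CHR before the start. The Nusap1 stretch held neither motif, and the Cdc20 stretch held 2 CCAAT boxes and 1 CHR match. In the whole windows of Bub1 and Cdc25b, a TTCGAA lay after the start.

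Markers of other cell types, also listed with earlier results of these data known, give the background against which these genes are read. Gene counts summed to 10.8 to 31.3 M in tumour libraries and to 6.39 to 20.6 M in culture libraries. A list of 7 epithelial markers summed to 0.990 to 1.68 CPM (the counts of a gene scaled for library depth, here within the cultures or within the tumours) over the 6 cultures, with Krt8 at 0.505 CPM or lower and Epcam at 0.337 CPM or lower, so epithelial markers were close to 0 in cultured cells of this colon cancer line. In tumours, 10 pan-leukocyte markers summed to 198 to 259 CPM in KO laparotomy, 177 to 256 CPM in KO control, 119 to 153 CPM in WT laparotomy and 238 to 1207 CPM in WT control libraries. Ptprc, the leukocyte surface protein CD45, was at 224 CPM in WT control replicate 2 and at 12.6 to 26.0 CPM in the other tumour libraries. WT control replicate 2 therefore stands apart. For comparisons of tumour groups that use it, the median over the mitotic genes is given with and without it. Among single genes, a value without it is given only for Top2a and Mki67, and not in every comparison. Other single-gene values from those tumour comparisons, including the calls of Myc and E2f8, are given only with it. How far they rest on it is not shown. Padi4 itself stood at 64.4 to 66.1 CPM in the NET cultures and 64.5 to 72.1 CPM in the control cultures. In tumours it had 3.97 and 2.83 CPM in KO laparotomy, 5.47 and 2.08 CPM in KO control, 30.7 and 30.3 CPM in WT laparotomy, and 3.20 and 7.49 CPM in WT control libraries. Since the labels give the cancer cells a WT genotype, these levels do not check the hosts, and whether the reads came from cancer cells or host cells was not tested.

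Per kilobase of exon, Top2a was the most abundant of the 43 RNAs in control cultures, at 201 CPM per kb. It encodes topoisomerase II alpha, which untangles copied chromosomes. Tpx2, a spindle assembly factor that activates Aurora A, followed at 91.0 CPM per kb, and Cdc25b, a phosphatase that activates cyclin-dependent kinases, at 84.1 CPM per kb. The lowest were Cenpf, a kinetochore protein, at 10.6 CPM per kb and Foxm1, a forkhead transcription factor of late cell cycle genes, at 9.50 CPM per kb. In 10 of the 43 genes, over 5% of the 50-base words of the transcripts also occur in other annotated transcripts, with the highest share in Ccnb1 (40.6%) and Kif20a (27.3%). Counts of Ccna2, Kif20a and Ncapg on their own strand were 123%, 128% and 117% of the unstranded counts used here. A value from own-strand counts is given below for Ccna2 alone, and the unstranded values of Kif20a and Ncapg below carry this limit.

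**Figure D1:**
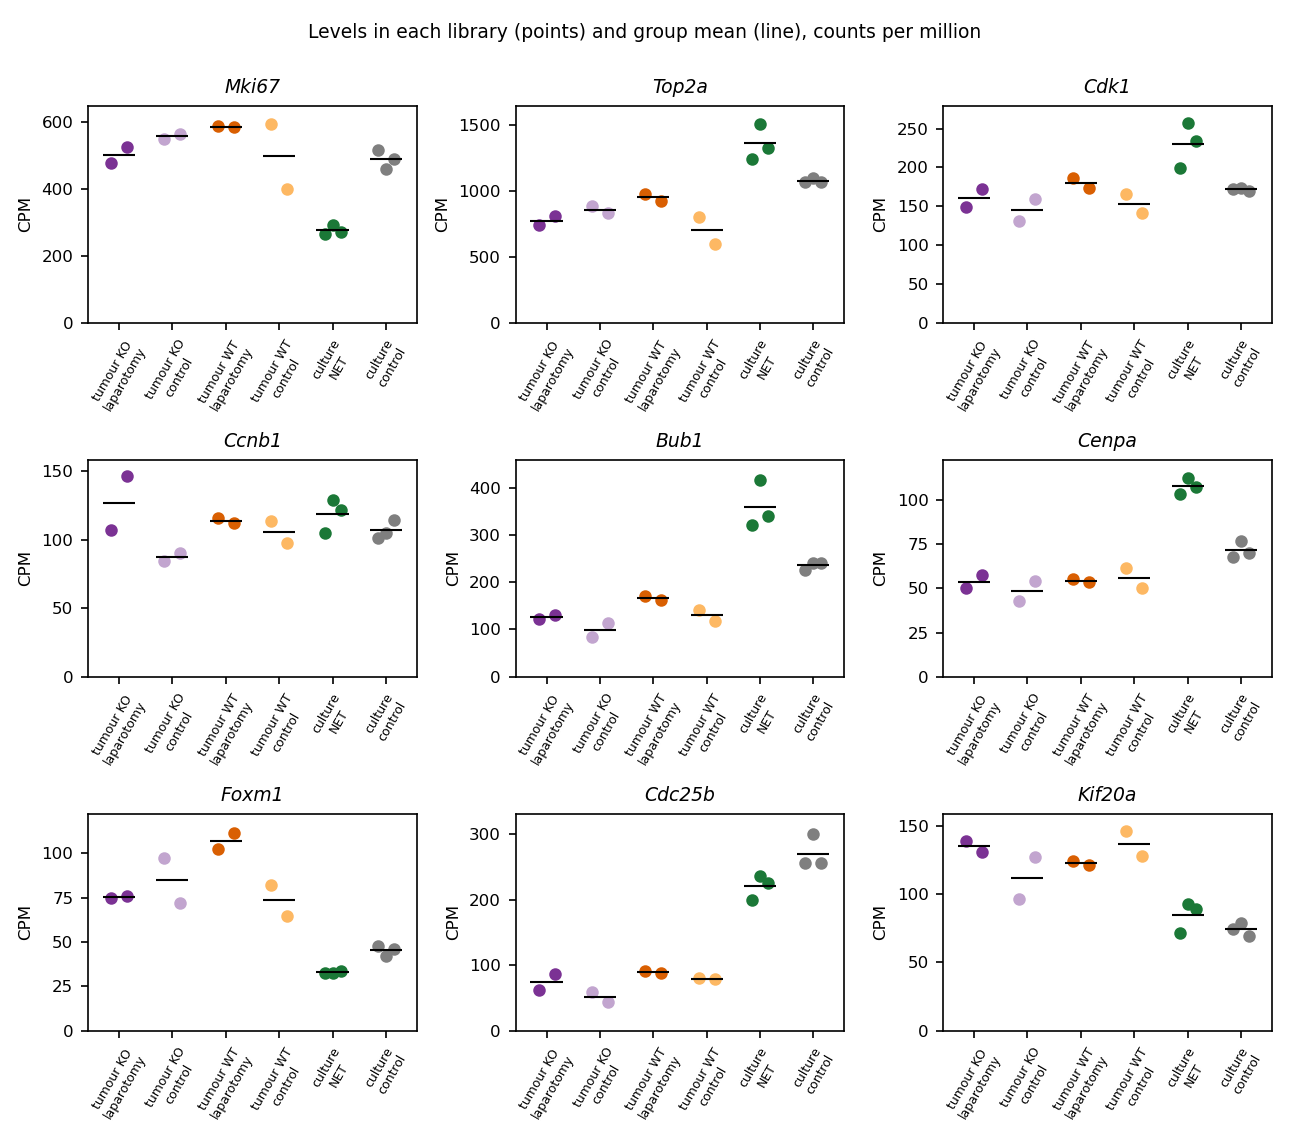
Levels of selected mitosis and G2 genes in each of the 14 libraries, by group, in CPM scaled over all 14 libraries (y axes start at 0). Points are libraries and bars are group means: Mki67 lies lowest in the NET cultures (266 to 292 CPM), and Cdc25b lies lower in all 8 tumour libraries (43.3 to 91.7 CPM) than in the control cultures (255 to 299.5 CPM).

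NET chromatin moved the mitotic genes in both directions. The RNA of Mki67, a protein that coats mitotic chromosomes and is the usual marker of proliferation, fell the most, to 0.562 of its control level, while Bub1, Cenpa, Cdk1 and Top2a rose by up to 1.51-fold. With edgeR's quasi-likelihood test and Benjamini-Hochberg adjustment over 11753 genes, 15 of the 43 genes rose, 10 fell and 18 did not pass the adjusted p of 0.05. The median log2 fold change of the 43 was 0.12, beside 0.00 over all genes tested. NET chromatin called 54.1% of all genes tested (26.3% higher and 27.8% lower), so the share of mitotic genes called (34.9% higher and 23.3% lower) lies near the background. All 3 NET libraries lay above all 3 control libraries for 15 of the 43 genes and below them for 8, beside 29.5% and 30.6% of all genes tested.

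**Figure D2:**
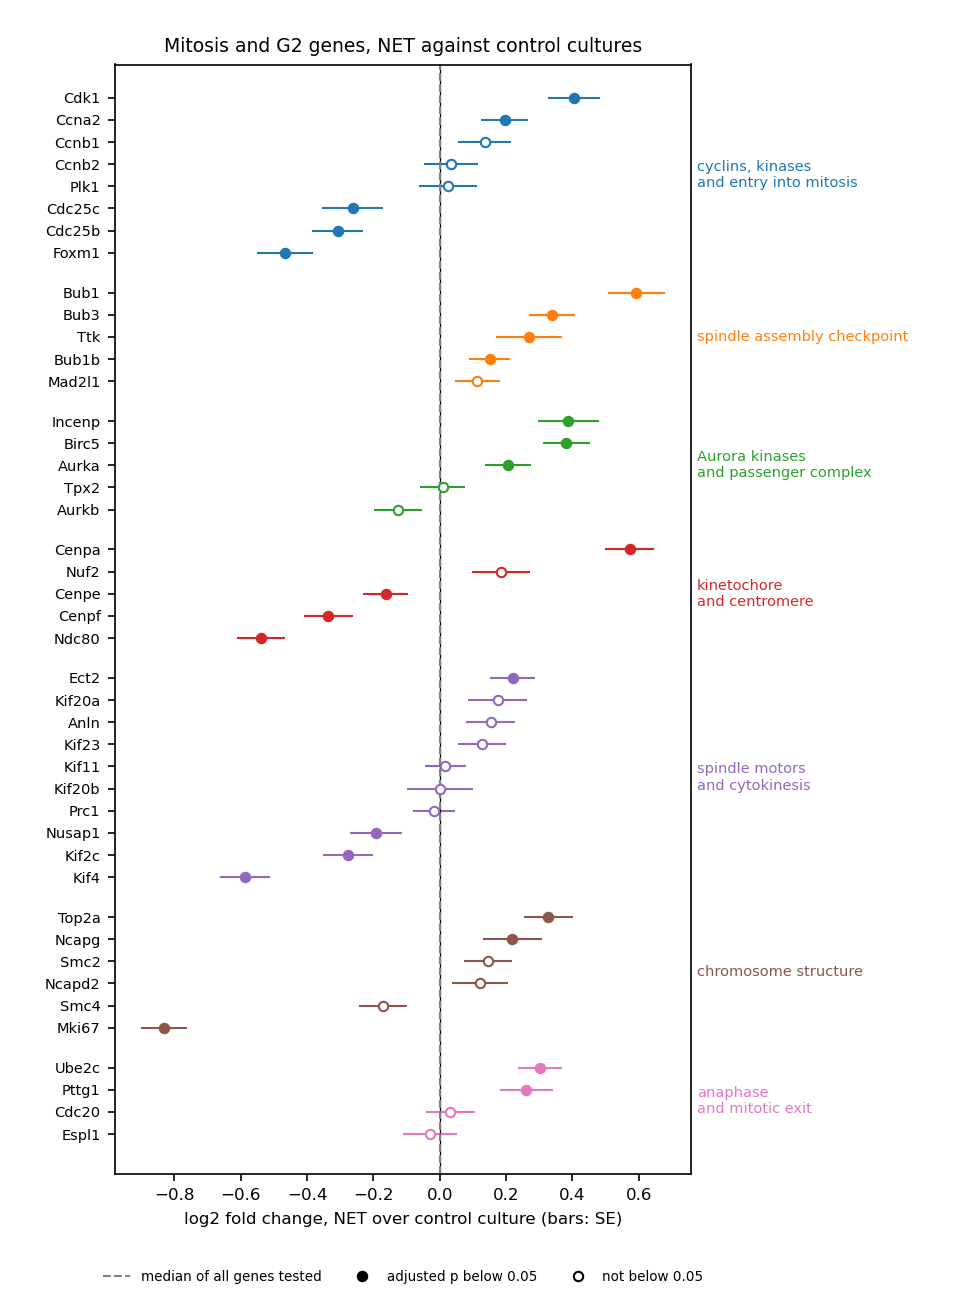
Log2 fold change of each of the 43 genes in NET against control cultures (x axis), grouped by role, with bars for the standard error (3 libraries a group) and colour for the call. Bub1 and Cenpa stand farthest to the right (0.59 and 0.57) and Mki67 farthest to the left (-0.83).

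Among the 8 cyclins, kinases and other genes of entry into mitosis, 2 rose and 3 fell. On the culture scale, Cdk1, the kinase that starts mitosis, had 195, 255 and 219 CPM in the NET cultures, against 169, 169 and 167 CPM in the control cultures. The groups did not overlap, the controls lay close together and NET replicate 2 was highest. Cdk1 rose by 0.40 ± 0.08 on the log2 scale (SE, n = 3 each, edgeR adjusted p = 0.000374). Ccna2, cyclin A2, rose by 0.20 ± 0.07 (edgeR adjusted p = 0.0256), but it lost the call without NET replicate 2, where the log2 fold change was 0.13 and the adjusted p 0.0995. The Ccna2 call was also lost without control replicate 1, control replicate 3 or NET replicate 3. Ccnb1, cyclin B1, had 103, 128 and 114 CPM in the NET cultures and 99.0, 102 and 112 CPM in the control cultures. These groups overlapped, and the difference of 0.14 ± 0.08 did not pass the test (edgeR adjusted p = 0.159). Plk1, the polo kinase, had 66.3, 65.4 and 74.8 CPM in the NET cultures and 59.8, 75.0 and 69.2 CPM in the control cultures, which overlapped throughout (log2 fold change 0.02 ± 0.09, edgeR adjusted p = 0.829).

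The genes of this group that fell act upstream of the kinase. Foxm1 had 31.7, 32.4 and 31.8 CPM in the NET cultures, against 46.8, 40.7 and 45.1 CPM in the control cultures. Every NET library lay below every control library, and Foxm1 fell by 0.47 on the log2 scale (SE 0.09, edgeR adjusted p = 0.000217). Cdc25b had 195, 234 and 212 CPM in the NET cultures, against 250.01, 291 and 251 CPM in the control cultures, again without overlap, and its log2 fold change was -0.31 ± 0.08 (edgeR adjusted p = 0.00274). Cdc25c, the related phosphatase, changed by -0.26 ± 0.09 (edgeR adjusted p = 0.0218), a call lost without NET replicate 3 (adjusted p = 0.147). That call was also lost without NET replicate 1 or control replicate 3.

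In the spindle assembly checkpoint, 4 of 5 genes rose and none fell. Bub1, a kinase that recruits checkpoint proteins to kinetochores, had 314, 413 and 320.4 CPM in the NET cultures, against 222, 234 and 236 CPM in the control cultures. The NET libraries lay clear above the controls, with replicate 2 highest, and Bub1 rose 1.51-fold (log2 fold change 0.59 ± 0.09, edgeR adjusted p = 2.76e-05). Bub3, the WD40 partner of Bub1, rose by 0.34 ± 0.07 (edgeR adjusted p = 0.000641). Ttk, the kinase MPS1, rose by 0.27 ± 0.10 (edgeR adjusted p = 0.0304) and Bub1b, the checkpoint protein BUBR1, by 0.15 ± 0.06 (edgeR adjusted p = 0.0472). The Ttk call was lost without NET replicate 2 (log2 fold change 0.14, edgeR adjusted p = 0.158), control replicate 1 or control replicate 2. The Bub1b call was lost without control replicate 3 (edgeR adjusted p = 0.162) and without any other single library except control replicate 2. Mad2l1, which holds back the anaphase-promoting complex, did not pass (0.11 ± 0.07, edgeR adjusted p = 0.163).

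Of the 5 genes of the Aurora kinases and their partners, 3 rose and none fell. Incenp, the scaffold of the chromosomal passenger complex, had 189, 253 and 213 CPM in the NET cultures, against 159, 184 and 155 CPM in the control cultures. The lowest NET library stood above the highest control library, and Incenp rose by 0.39 ± 0.09 on the log2 scale (edgeR adjusted p = 0.0019). Birc5, the passenger protein survivin, rose by 0.38 ± 0.07 (edgeR adjusted p = 0.000259). Aurka, the spindle pole kinase, rose by 0.21 ± 0.07 (edgeR adjusted p = 0.0198), a call lost without control replicate 3 (adjusted p = 0.0757). Without NET replicate 2 or NET replicate 3 the Aurka call was lost too. Aurkb, the kinase that Incenp and Birc5 hold at the centromere, had a log2 fold change of -0.13 ± 0.07 that did not pass (edgeR adjusted p = 0.145), and Tpx2 had 0.01 ± 0.07 (adjusted p = 0.922).

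The 5 kinetochore and centromere genes split, with 1 higher and 3 lower. Cenpa, the histone H3 variant that marks centromeres, had 101, 111 and 101 CPM in the NET cultures, against 66.4, 74.5 and 68.7 CPM in the control cultures. Ndc80, the outer kinetochore protein that grips microtubules, went the other way, with 70.6, 64.9 and 72.6 CPM in the NET cultures, against 103, 96.0 and 106 CPM in the control cultures. Neither gene's groups overlapped. Cenpa rose 1.49-fold (log2 fold change 0.57 ± 0.07, edgeR adjusted p = 5.55e-06), and Ndc80 fell to 0.688 of the control level (-0.54 ± 0.07, edgeR adjusted p = 9.32e-06). Nuf2, which forms a complex with Ndc80, had a log2 fold change of 0.19 ± 0.09 that did not pass (edgeR adjusted p = 0.0807). Cenpf fell by 0.34 on the log2 scale (SE 0.07, edgeR adjusted p = 0.000992). Cenpe, a kinetochore motor, had -0.16 ± 0.07 (edgeR adjusted p = 0.0495), a call lost without control replicate 1 (adjusted p = 0.201). The Cenpe call was also lost without control replicate 3, NET replicate 1 or NET replicate 3.

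Among 10 genes of spindle motors and cytokinesis, 1 rose, 3 fell and 6 did not pass. Kif4, a chromosome-bound kinesin that also organises the midzone of the anaphase spindle, had 60.7, 53.4 and 52.4 CPM in the NET cultures, against 81.0, 85.0 and 83.0 CPM in the control cultures. The groups were far apart for their spread, and Kif4 fell to 0.666 of the control level (log2 fold change -0.59 ± 0.08, edgeR adjusted p = 6.88e-06). Kif2c, a kinesin that takes microtubules apart, fell by 0.28 on the log2 scale (SE 0.08, edgeR adjusted p = 0.0053). Nusap1, a microtubule-binding protein of the spindle, changed by -0.19 ± 0.08 (edgeR adjusted p = 0.0447), with the call lost without NET replicate 3 (adjusted p = 0.23) and the log2 fold change at -0.29 without NET replicate 2. Leaving out any single library other than NET replicate 2 lost the Nusap1 call. Ect2, the exchange factor that activates RhoA at the cleavage site, rose by 0.22 ± 0.07 (edgeR adjusted p = 0.0113). The other 6 (Kif11, Kif20a, Kif20b, Kif23, Prc1 and Anln) had log2 fold changes of -0.02 to 0.17.

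The chromosome structure genes held both the largest fall and the most abundant RNA. Mki67 had 260.4, 290.0 and 256 CPM in the NET cultures, against 507, 446 and 479 CPM in the control cultures. Top2a had 1216, 1493 and 1247 CPM in the NET cultures, against 1042, 1061 and 1048 CPM in the control cultures. Neither gene's groups overlapped, and the genes moved in opposite directions. Mki67 fell by 0.83 on the log2 scale (SE 0.07, edgeR adjusted p = 7.89e-08), and Top2a rose by 0.33 (SE 0.07, edgeR adjusted p = 0.00133). Of the 4 condensin genes, which compact mitotic chromosomes, Ncapg rose by 0.22 ± 0.09 (edgeR adjusted p = 0.0486), a call lost without NET replicate 2 (0.10, adjusted p = 0.263). The Ncapg call was also lost without control replicate 1 or control replicate 2. Smc2, Smc4 and Ncapd2 did not pass (log2 fold changes -0.17 to 0.15).

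Of the 4 genes of anaphase and mitotic exit, 2 rose and none fell. Ube2c, the ubiquitin-conjugating enzyme of the anaphase-promoting complex, had 213, 222 and 211 CPM in the NET cultures, against 159, 186 and 178 CPM in the control cultures. The groups did not overlap, and Ube2c rose by 0.30 ± 0.07 on the log2 scale (edgeR adjusted p = 0.00121). Pttg1, the separase inhibitor securin, rose by 0.26 ± 0.08 (edgeR adjusted p = 0.00984), a call lost without control replicate 3 (adjusted p = 0.0634). Cdc20, the checkpoint's target and activator of the complex, and Espl1, separase, had log2 fold changes of 0.03 ± 0.07 and -0.03 ± 0.08 and did not pass (edgeR adjusted p = 0.739 and 0.779).

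The NET libraries differed among themselves more than the controls. The summed level of the 43 genes was 7270, 8576 and 7532 CPM in the NET cultures and 7303, 7405 and 7383 CPM in the control cultures. The median log2 level of the 43 against the control mean was -0.02, 0.25 and 0.08 in the NET cultures and -0.02, 0.01 and 0.00 in the control cultures. NET replicate 2, also the library with the fewest gene counts (6.39 M), stood highest, and NET replicate 1 stood among the controls. Without NET replicate 2, 10 genes were higher and 11 lower, and without NET replicate 1, 19 were higher and 7 lower. Over all genes, 2873 were higher and 3060 lower without NET replicate 2, and 3070 and 3241 without NET replicate 1. In all, 14 of the 25 calls were kept under all 12 alternative settings. The higher ones were Cdk1, Bub1, Bub3, Birc5, Incenp, Cenpa and Top2a, and the lower ones were Foxm1, Cdc25b, Cenpf, Ndc80, Kif2c, Kif4 and Mki67. Scaling by library totals in place of TMM factors shifted the median of all genes to -0.16, and 7 of the 43 genes were then higher and 14 lower, with a median of -0.04. All genes called split into 1640 higher and 4777 lower under that scaling (25.6% higher), beside 3093 and 3270 with TMM factors (48.6% higher).

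Sums of leukocyte marker lists were higher in the NET cultures than in the control cultures. Other lists differed in direction. Fibroblast sums were higher (156 to 171 against 141 to 148 CPM), and erythroid and platelet sums were lower (17.2 to 19.3 against 20.5 to 21.5 CPM). Endothelial and lung epithelium sums overlapped. The 10 pan-leukocyte markers summed to 18.2 to 22.1 CPM in the NET cultures and to 6.75 to 7.46 CPM in the control cultures, and 12 monocyte and macrophage markers to 154 to 177 CPM in the NET cultures and 89.2 to 108 CPM in the control cultures. The 10 neutrophil markers summed to 2.69 to 3.88 CPM in the NET cultures, with up to 5 of them at 0, and to 0.304 to 1.02 CPM in the control cultures, with up to 8 at 0. Reads that matched no gene feature made up 21.8 to 24.0% of reads in the NET cultures and 17.6 to 18.2% in the control cultures. Their part in the mitotic results was not tested.

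Other cell cycle genes were read from lists chosen with earlier results of these data known. Of 81 other mitosis genes, 18 rose and 19 fell (median log2 fold change 0.01). Ckap2, a spindle-associated protein, averaged 161 ± 25.8 CPM in the NET cultures and 103 ± 3.05 CPM in the control cultures (SD, n = 3 each), and rose by 0.63 ± 0.09 (edgeR adjusted p = 1.71e-05). Aspm, a spindle pole protein, averaged 44.9 ± 3.72 CPM in the NET cultures and 90.0 ± 7.52 CPM in the control cultures, and fell by 1.002 ± 0.08 on the log2 scale (edgeR adjusted p = 8.85e-08). Pbk, a mitotic kinase, and Ckap2l, a spindle protein, had log2 fold changes of 0.41 ± 0.07 and -0.92 ± 0.08 (edgeR adjusted p = 0.000126 and 1.1e-07). Of 54 replication and S phase genes, 23 rose and 9 fell (median 0.13), and their median level against the control mean was 0.12, 0.13 and 0.13 in the NET cultures, close together where the mitotic genes were not. Cdc6, which loads the replicative helicase, averaged 49.9 ± 0.248 CPM in the NET cultures and 28.0 ± 0.28 CPM in the control cultures, and rose by 0.83 ± 0.08 (edgeR adjusted p = 3.27e-07). Mcm3, a helicase subunit, rose by 0.54 ± 0.06, while Dbf4, the activator of the kinase CDC7, fell by 0.42 and Mcm10, a replication initiation factor, by 0.64.

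Of 29 regulators of these genes, 9 rose and 9 fell in NET cultures. Gadd45b, a stress-induced growth arrest gene, averaged 119 ± 8.93 CPM in the NET cultures and 37.7 ± 3.43 CPM in the control cultures, and rose by 1.65 ± 0.08 on the log2 scale (edgeR adjusted p = 2.32e-10). Its relative Gadd45a rose by 0.40 ± 0.07 (edgeR adjusted p = 9.84e-05). The E2F family members E2f8 and E2f3 fell by 1.05 and 0.66 (edgeR adjusted p = 1.13e-06 and 2.3e-05), and E2f1, which is in the S phase list, fell by 0.30 (SE 0.09, edgeR adjusted p = 0.0115). Mybl2, the partner of MuvB at CHR promoters, had -0.04 ± 0.08 and did not pass (adjusted p = 0.7). Trp53, which encodes p53, and its target Cdkn1a, the kinase inhibitor p21, also did not pass (0.14 ± 0.07 and 0.10 ± 0.08, edgeR adjusted p = 0.0914 and 0.27). Of 22 genes of the anaphase-promoting complex and cohesin, 5 rose and 1 fell, and the one that fell was Anapc10 (-0.57, edgeR adjusted p = 0.00144).

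The promoter letters were set beside these calls as counts. CCAAT was present in 11 of 13 windows of genes that rose, 5 of 8 of genes that fell and 10 of 14 of genes that did not pass. The CHR letters were present in 11 of 13, 6 of 8 and 11 of 14 windows of the same groups. Mki67 and Top2a, which moved in opposite directions, both held several copies of each motif before the start.

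**Figure D3:**
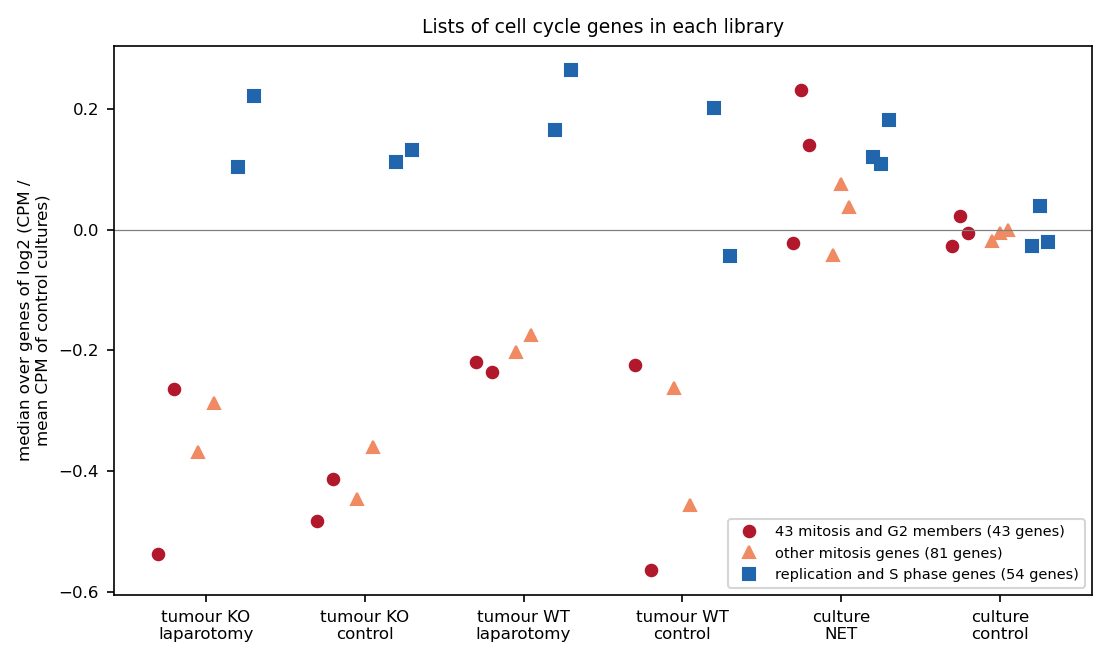
Median over the genes of a list of the log2 ratio of CPM to the mean of the control cultures (y axis), for each library of the 6 groups (x axis), with a colour for each list. The 43 mitosis and G2 genes lie between -0.56 and -0.22 in the tumours, where the S phase list lies between -0.04 and 0.26.

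In tumours, no gene of the 43 passed the adjusted p of 0.05 for laparotomy in either host, for PAD4 KO against WT hosts in either condition, or for the difference between the laparotomy effects. These were edgeR quasi-likelihood tests over 14615 genes in a fit of the 8 tumour libraries, whose scaling the tumour CPM values below follow. Few genes of any kind passed, 0.0547% of those tested for laparotomy in WT hosts (0.0205% higher and 0.0342% lower) and 0.52% in KO hosts (0.342% higher and 0.178% lower). The share was 0.677% for the difference (0.411% higher and 0.267% lower), 0.116% for KO against WT control tumours (0.0547% higher and 0.0616% lower) and 0.0205% for KO against WT laparotomy tumours, all higher. An unadjusted p under 0.05 was reached by 13 of the 43 genes for laparotomy in WT hosts, beside 18.8% of all genes tested, and by 4 in KO hosts, beside 15.7%. It was reached by 4 for the difference (all genes 19.2%), 4 for KO against WT control tumours (16.3%) and 7 for KO against WT laparotomy tumours (13.4%). DESeq2 called 3 of the 43 for laparotomy in WT hosts, where it called 8.5% of all genes with an adjusted p. In each of the other comparisons it called 1 of the 43, beside 5.5% of all genes for laparotomy in KO hosts, 7.84% for the difference, 5.22% for KO against WT control tumours and 4.03% for KO against WT laparotomy tumours. An edgeR fit of all 14 libraries called 1 of the 43 for laparotomy in KO hosts (all genes 7.85%), 2 for the difference (11.1%), 1 for KO against WT control tumours (7.25%) and 2 for KO against WT laparotomy tumours (4.94%). Both settings called far more genes overall than edgeR did on the tumour libraries. The laparotomy comparisons share libraries with the KO against WT comparisons and with the difference, so the values below are given side by side and not as separate support.

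**Figure D4:**
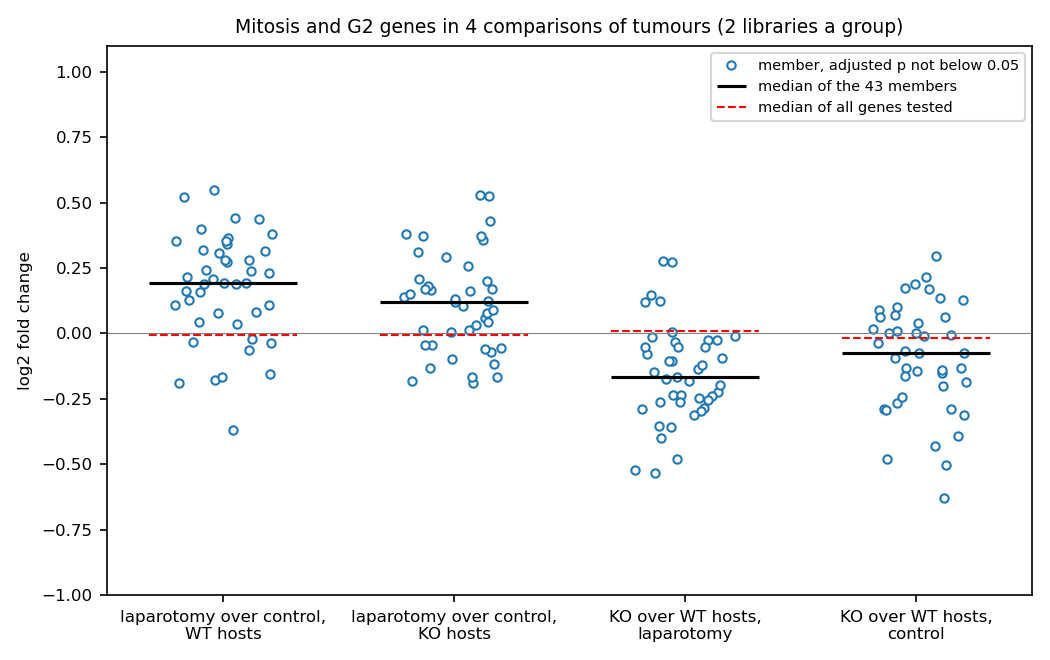
Log2 fold change of each of the 43 genes (points) in 4 comparisons of tumour groups of 2 libraries (x axis), with the median of the genes and that of all genes tested. The medians were 0.19 and 0.12 for laparotomy in WT and KO hosts, and -0.07 and -0.17 for KO against WT hosts in control and laparotomy tumours.

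With laparotomy in WT hosts, 34 of the 43 genes had a log2 fold change above 0, with a median of 0.19 beside -0.01 over all genes. Both laparotomy libraries lay above both control libraries for 20 genes and below them for 4, beside 29.2% and 28.1% of all genes. Ect2 had 96.7 and 82.1 CPM in WT laparotomy tumours and 65.5 and 59.3 CPM in WT control tumours, without overlap (0.52 ± 0.12, edgeR adjusted p = 0.135). Smc4 had 372 and 343 CPM in WT laparotomy tumours and 276 and 285 CPM in WT control tumours, also without overlap (0.35 ± 0.09, edgeR adjusted p = 0.143). Pttg1 lay the other way, at 26.9 and 29.6 CPM in WT laparotomy tumours and 34.5 and 38.5 CPM in WT control tumours (-0.37 ± 0.14, edgeR adjusted p = 0.22). Kif20a, a kinesin of cytokinesis, had 128 and 124 CPM in WT laparotomy tumours and 148 and 132 CPM in WT control tumours (-0.15 ± 0.14, edgeR adjusted p = 0.597). A fit of all 14 libraries pools the spread of cultures and tumours, so its tests can be too optimistic for tumours. In that fit, Foxm1, Nuf2, Ect2, Top2a, Smc4 and Espl1 passed the test in this comparison, where 10.1% of all genes passed. With DESeq2, Ect2, Top2a and Smc4 did, beside the 8.5% given above.

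The size of this shift depended on which WT control library was left out. WT control replicate 2 was the lowest of the 8 tumour libraries for 23 of the 43 genes, beside 13.5% of all genes, and WT laparotomy replicate 1 was the highest for 17, beside 12.6% of all genes. The summed level of the 43 genes was 5610 and 6273 CPM in KO laparotomy, 5664 and 5791 CPM in KO control, 6890 and 6626 CPM in WT laparotomy, and 6427 and 5146 CPM in WT control tumours. The median of the 43 for laparotomy in WT hosts was 0.33 without WT control replicate 1 and 0.06 without WT control replicate 2. Without WT control replicate 1, which leaves the library that stands apart as the control, Top2a passed (0.65, edgeR adjusted p = 0.039), beside 3.28% of all genes. Without WT control replicate 2 it did not (0.26, edgeR adjusted p = 0.565), and the smallest adjusted p of any of the 43 was 0.359. Most marker sums were higher in both WT control libraries than in the WT laparotomy libraries. The exception was T and NK cell markers, at 5.57 CPM in WT control replicate 1 and 114 CPM in replicate 2. They summed to 22.3 to 24.9 CPM in WT laparotomy libraries. The 10 neutrophil markers summed to 4.91 to 6.84 CPM in WT laparotomy libraries, to 52.2 CPM in WT control replicate 1 and to 573 CPM in WT control replicate 2. The 11 lung epithelium markers summed to 17.0 to 26.7 CPM in WT laparotomy libraries, to 146 CPM in WT control replicate 1 and to 836 CPM in WT control replicate 2. The part of these cells in the difference was not tested.

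With laparotomy in KO hosts, 31 of the 43 genes had a log2 fold change above 0 (median 0.12, beside -0.01 over all genes), and 18 genes lay above and 4 below without overlap, beside 21.6% and 20.5% of all genes. Ccnb1 had 109 and 149 CPM in KO laparotomy tumours and 87.8 and 91.4 CPM in KO control tumours (0.52 ± 0.15, edgeR adjusted p = 0.171). Cdc25b had 62.9 and 88.3 CPM in KO laparotomy tumours and 60.9 and 43.8 CPM in KO control tumours (0.53 ± 0.20, edgeR adjusted p = 0.243). Neither overlapped, and in both the higher laparotomy library was replicate 2. Top2a had 747 and 821 CPM in KO laparotomy tumours and 918 and 841 CPM in KO control tumours (-0.17 ± 0.14, edgeR adjusted p = 0.63). Ttk had 41.5 and 41.7 CPM in KO laparotomy tumours and 41.2 and 53.2 CPM in KO control tumours, which overlapped (-0.18 ± 0.15, edgeR adjusted p = 0.602). The median was 0.19 without KO laparotomy replicate 1, 0.01 without KO laparotomy replicate 2 and 0.07 without KO control replicate 1. Monocyte and macrophage markers summed to 317 to 480 CPM in KO laparotomy tumours and 122 to 319 CPM in KO control tumours, and their part was not tested.

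The laparotomy effect in KO hosts minus that in WT hosts had a median of -0.10 over the 43 genes, beside 0.03 over all genes, and 17 were above 0. Foxm1 had 75.5 and 77.0 CPM in KO laparotomy, 101 and 73.0 CPM in KO control, 105 and 114 CPM in WT laparotomy, and 83.2 and 66.9 CPM in WT control tumours. It was highest in the WT laparotomy libraries, and the difference of -0.74 ± 0.24 did not pass (edgeR adjusted p = 0.166). Top2a had 1001 and 944 CPM in WT laparotomy and 814 and 619 CPM in WT control tumours, which with the KO values above gave a difference of -0.61 ± 0.20 (edgeR adjusted p = 0.167). Without WT control replicate 1 it passed (-0.83, edgeR adjusted p = 0.0465), beside 2.2% of all genes. Without WT control replicate 2 it did not (-0.43, edgeR adjusted p = 0.294), and the smallest adjusted p of any of the 43 was 0.227. Pttg1 had 37.2 and 31.4 CPM in KO laparotomy and 30.8 and 30.9 CPM in KO control tumours, and its difference of 0.52 ± 0.20 did not pass (edgeR adjusted p = 0.215). Kif20a had 141 and 133 CPM in KO laparotomy and 100 and 129 CPM in KO control tumours (difference 0.41 ± 0.19, edgeR adjusted p = 0.29). The median difference changed sign, to 0.09, without WT control replicate 2. It was -0.25 without WT control replicate 1, -0.23 without KO laparotomy replicate 2 and -0.17 without KO control replicate 1, and lay nearer 0 without KO laparotomy replicate 1 (-0.03), WT laparotomy replicate 1 (-0.03) or KO control replicate 2 (-0.0029). All 8 neutrophil markers and all 11 lung epithelium markers tested had a difference above 0 (medians 4.99 and 3.80), and their part was not tested.

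Between hosts without surgery, KO tumours had a median of -0.07 against WT tumours over the 43 genes (all genes -0.02), with 2 genes above and 11 below without overlap, beside 22.2% in each direction over all genes. Cdc25b had 60.9 and 43.8 CPM in KO control tumours and 80.8 and 81.1 CPM in WT control tumours, without overlap (-0.63 ± 0.20, edgeR adjusted p = 0.202). Bub1b had 109.9 and 126 CPM in KO control tumours and 179 and 139 CPM in WT control tumours, without overlap (-0.43 ± 0.16, edgeR adjusted p = 0.244). Top2a and Kif4 lay higher in KO control tumours by 0.30 ± 0.14 and 0.17 ± 0.13 (edgeR adjusted p = 0.346 and 0.563). Kif4 had 79.5 and 90.3 CPM in KO control tumours and 84.1 and 66.8 CPM in WT control tumours, which overlapped. The median changed sign, to 0.08, without WT control replicate 1, and was -0.19 without WT control replicate 2 and -0.02 without KO control replicate 1. None of the 43 passed without WT control replicate 1 (smallest edgeR adjusted p = 0.107), where 1.4% of all genes did. Most host marker lists were lower in the same comparison, but fibroblast markers were not. The log2 fold change was below 0 for all 8 neutrophil markers tested (median -3.10) and all 10 pan-leukocyte markers (-2.07). It was also below 0 for all 12 monocyte and macrophage markers (-1.73) and 10 of 11 lung epithelium markers (-1.42). For fibroblast markers it was above 0 in 6 of 8 (median 0.44). None of these markers passed the edgeR test. Neutrophil markers summed to 11.8 to 92.3 CPM in KO control tumours and 52.2 to 573 CPM in WT control tumours. Fibroblast markers summed to 5571 to 10060 CPM in KO control tumours and 5297 to 6544 CPM in WT control tumours. The part of these markers was not tested.

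After laparotomy, 37 of the 43 genes lay below 0 in KO against WT hosts, with a median of -0.17 (all genes 0.01), and 3 genes lay above and 21 below without overlap, beside 26.2% and 26.1% of all genes. Espl1 had 86.7 and 80.9 CPM in KO laparotomy tumours and 125 and 118 CPM in WT laparotomy tumours (-0.53 ± 0.13, edgeR adjusted p = 0.165). Ect2 had 65.7 and 62.2 CPM in KO laparotomy tumours, against the WT laparotomy values above (-0.48 ± 0.12, edgeR adjusted p = 0.176). Both were lower in each KO library than in each WT library. Pttg1 and Cdc20 lay the other way, by 0.28 ± 0.14 and 0.27 ± 0.19 (edgeR adjusted p = 0.447 and 0.561), and Cdc20 had 90.6 and 127 CPM in KO laparotomy tumours and 82.5 and 97.9 CPM in WT laparotomy tumours. The median was -0.07 without KO laparotomy replicate 1 and -0.28 without KO laparotomy replicate 2. Lung epithelium markers summed to 98.9 to 108 CPM in KO and 17.0 to 26.7 CPM in WT laparotomy tumours. The 8 fibroblast markers summed to 6857 to 12407 CPM in KO and 3767 to 5178 CPM in WT laparotomy tumours, and the part of both was not tested.

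Across the 4 tumour groups, Mki67 had 484 and 533 CPM in KO laparotomy, 569 and 573 CPM in KO control, 603 and 596 CPM in WT laparotomy, and 604 and 412 CPM in WT control tumours. Cdk1 had 151 and 175 CPM in KO laparotomy, 136 and 161 CPM in KO control, 191 and 177 CPM in WT laparotomy, and 168 and 145 CPM in WT control tumours. Plk1 had 83.6 and 90.4 CPM in KO laparotomy, 78.3 and 73.4 CPM in KO control, 88.4 and 89.8 CPM in WT laparotomy, and 96.4 and 72.7 CPM in WT control tumours. Ccnb1, given above for KO hosts, had 119 and 114 CPM in WT laparotomy and 115 and 101 CPM in WT control tumours. WT control replicate 2 was the lowest library for Mki67 and Plk1 and replicate 1 of the same group the highest for both. Of the other lists, the 81 other mitosis genes and the 54 S phase genes had no call in these comparisons with edgeR, and their medians were 0.15 and 0.15 for laparotomy in WT hosts and 0.08 and 0.01 in KO hosts. Among the regulators, Myc passed for KO against WT control tumours (1.24 ± 0.13, edgeR adjusted p = 0.0388). Myc and E2f8, a repressor of the E2F family, passed for the difference between laparotomy effects (-1.40 ± 0.18 and -1.47 ± 0.24, edgeR adjusted p = 0.021 and 0.0475).

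Against control cultures, most of the mitotic RNAs had lower CPM levels in the tumour libraries. In the fit of all 14 libraries (14421 genes, edgeR quasi-likelihood test), 28 of the 43 genes were lower in the 8 tumour libraries than in the 3 control cultures, 5 were higher and 10 did not pass. This fit pools the spread of cultures and tumours, so its tests can be too optimistic for tumours. The median log2 fold change was -0.41, beside 0.06 over all genes. This comparison called 73.3% of all genes (38.6% higher and 34.7% lower), and the mitotic genes were called lower in 65.1%. For 26 genes all 8 tumour libraries lay below all 3 control cultures and for 3 they lay above, beside 28.1% and 31% of all genes. Tumours and cultures differ in growth site, and the labels name sorting and GFP for the tumours alone. Any part of sorting or GFP cannot be told apart from that of growth site. Tumour libraries also held more RNA of most lists of host cell markers. Erythroid and platelet markers were the exception, with sums of 3.99 to 18.3 CPM in tumours and 20.5 to 21.5 CPM in the control cultures, each on its own scale. Of the 5 tested, 1 was called higher and 1 lower. In addition, 1 of 12 monocyte and macrophage markers and 1 of 11 lung epithelium markers were called lower. The 8 fibroblast markers summed to 3767 to 12407 CPM in tumours, on the tumour scale, and to 141 to 148 CPM in the control cultures, on the culture scale. All 8 fibroblast and all 10 pan-leukocyte markers were called higher in tumours (median log2 fold changes 8.04 and 7.69), and their part in the mitotic results was not tested.

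**Figure D5:**
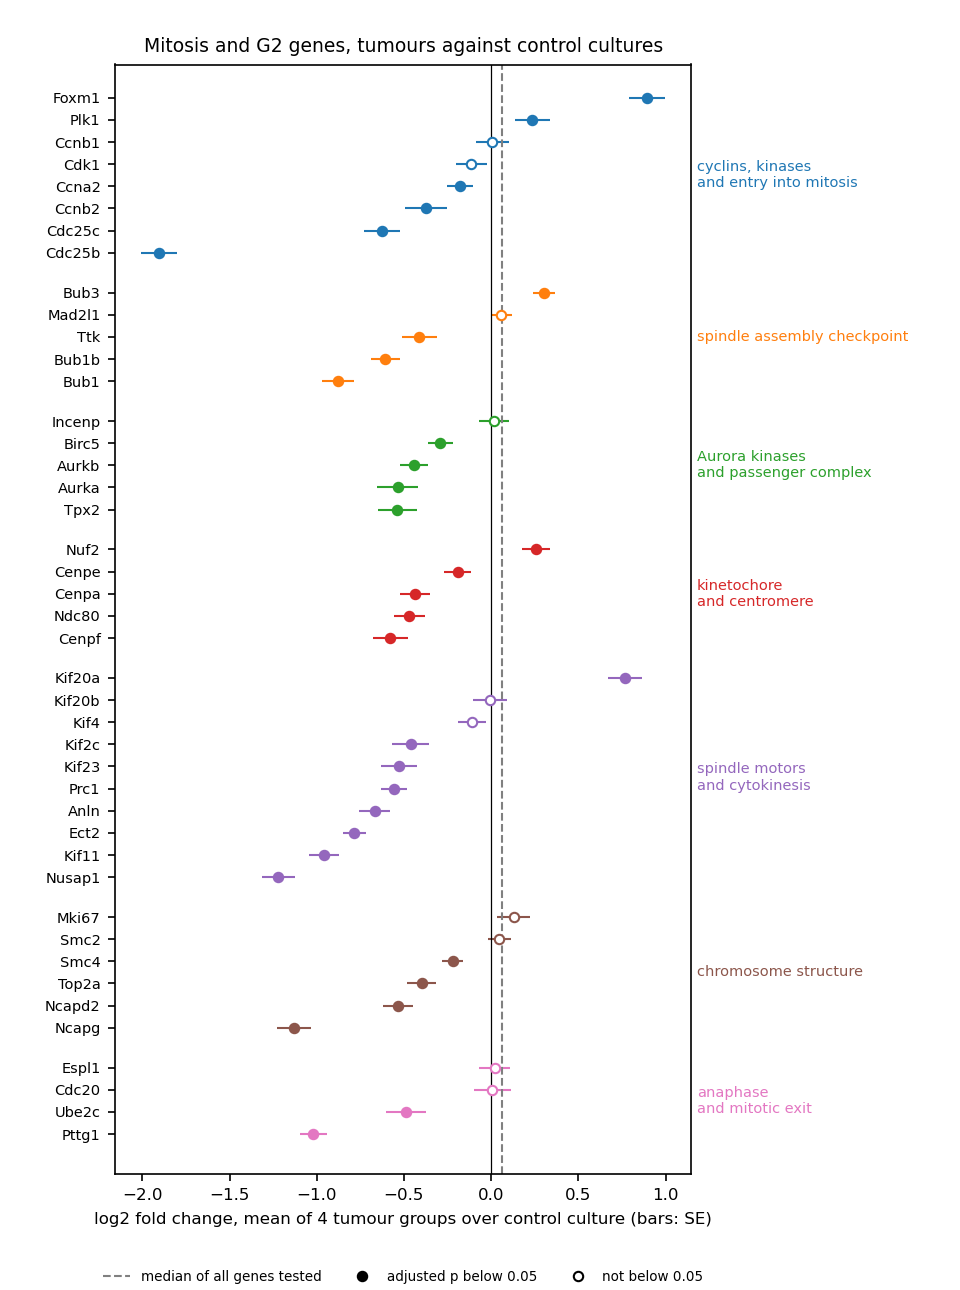
Log2 fold change of each of the 43 genes in the 8 tumour libraries against the 3 control cultures (x axis), grouped by role, with bars for the standard error and colour for the call. Foxm1 (0.89) and Kif20a (0.77) stand to the right, and Cdc25b (-1.90), Nusap1 (-1.22) and Ncapg (-1.13) to the left.

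Among the genes of entry into mitosis, 2 were higher and 4 lower. On the scale of all 14 libraries, Cdc25b ran from 43.3 to 91.7 CPM in tumours (median 79.1, n = 8), against 255, 299.5 and 256 CPM in the control cultures. The gap between the groups was wider than either group's range, and Cdc25b fell to 0.267 of the control level (log2 fold change -1.90 ± 0.10, edgeR adjusted p = 1.56e-09). Foxm1 lay the other way, at 64.9 to 112 CPM in tumours (median 78.9) and at 47.8, 41.9 and 46.0 CPM in the control cultures, again without overlap. It was 1.86-fold higher (edgeR adjusted p = 2.69e-06). Plk1 ran from 70.4 to 94.996 CPM in tumours (median 84.4) and stood at 61.0, 77.3 and 70.6 CPM in the control cultures. These overlapped, and its call (0.24 ± 0.10, edgeR adjusted p = 0.0449) was lost without control replicate 1 (0.15, adjusted p = 0.239). The Plk1 call was also lost without control replicate 3 and without any single tumour library other than WT control replicate 2. Cdk1 and Ccnb1 did not pass (-0.11 ± 0.09 and 0.01 ± 0.09, edgeR adjusted p = 0.251 and 0.953). Cdk1 ran from 132 to 186 CPM in tumours (median 162) and stood at 172, 174 and 170.2 CPM in the control cultures, inside the tumour range. Ccnb1 ran from 84.8 to 146 CPM in tumours (median 109.7) and stood at 101, 105 and 115 CPM in the control cultures. Ccna2 and Ccnb2, the other cyclins, were lower by 0.18 and 0.37 on the log2 scale, calls that were lost without control replicate 2 (edgeR adjusted p = 0.13 and 0.0757). The Ccna2 call was also lost without control replicate 1 or control replicate 3 and without several single tumour libraries. In the larger strand-specific count column, Ccna2 had -0.11 and did not pass (edgeR adjusted p = 0.18).

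In the checkpoint and Aurora groups, 7 of 10 genes were lower. Bub1 ran from 84.8 to 171 CPM in tumours (median 127), against 227, 241 and 240.4 CPM in the control cultures, with no overlap, and its log2 fold change was -0.88 ± 0.09 (edgeR adjusted p = 1.36e-06). Bub1b fell by 0.61 and Ttk by 0.41 on the log2 scale. Bub3 was the exception, higher by 0.30 ± 0.06 (edgeR adjusted p = 0.000645), with 104 to 117 CPM in tumours (median 109.6) and 83.1, 95.7 and 87.9 CPM in the control cultures. Aurka and Tpx2 both had -0.54 (edgeR adjusted p = 0.000997 and 0.000591), Aurkb -0.44 and Birc5 -0.29. Incenp did not pass (0.02 ± 0.09, edgeR adjusted p = 0.882).

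At the kinetochore, 4 genes were lower and Nuf2 was higher (0.26 ± 0.08, edgeR adjusted p = 0.0107). Nuf2 ran from 55.3 to 81.2 CPM in tumours (median 65.8) and stood at 57.6, 55.4 and 55.5 CPM in the control cultures, which overlapped. Cenpf, Ndc80, Cenpa and Cenpe had log2 fold changes of -0.58, -0.47, -0.44 and -0.19, and Cenpe lost its call without control replicate 1 (edgeR adjusted p = 0.166). Its call was also lost without control replicate 3, WT laparotomy replicate 1 or WT laparotomy replicate 2. Of the spindle motor and cytokinesis genes, 7 of 10 were lower. Nusap1 ran from 51.4 to 82.8 CPM in tumours (median 63.5), against 151, 152 and 152 CPM in the control cultures, and had -1.22 ± 0.09 (edgeR adjusted p = 5.36e-08). Kif11, the plus-end motor that pushes spindle poles apart, ran from 100.5 to 159 CPM in tumours (median 128), against 247, 236 and 245 CPM in the control cultures (-0.96 ± 0.09, edgeR adjusted p = 2.42e-07). Neither gene's groups overlapped. Ect2, Anln, Prc1, Kif23 and Kif2c had log2 fold changes of -0.79 to -0.46. Kif20a was higher (0.77 ± 0.10, edgeR adjusted p = 9.95e-06), at 96.5 to 146 CPM in tumours (median 128) and 74.4, 79.1 and 69.1 CPM in the control cultures, with no overlap.

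Among the chromosome structure genes, 4 of 6 were lower. Top2a ran from 599.7 to 976 CPM in tumours (median 819), against 1064, 1094 and 1069 CPM in the control cultures, with no overlap (-0.40 ± 0.08, edgeR adjusted p = 0.000642). Mki67 ran from 399 to 596 CPM in tumours (median 558) and stood at 518, 459.6 and 489 CPM in the control cultures, which lay inside the tumour range, and it did not pass (0.13 ± 0.10, edgeR adjusted p = 0.238). It passed without WT control replicate 2 (0.19, adjusted p = 0.0117). Ncapg, the condensin subunit, ran from 52.5 to 82.5 CPM in tumours (median 65.4), against 136, 137 and 156 CPM in the control cultures (-1.13 ± 0.10, edgeR adjusted p = 1.76e-07). Smc4 had -0.22 ± 0.06, with the call lost without control replicate 3 (-0.14, adjusted p = 0.0847). In the group of anaphase and exit, Pttg1 ran from 26.3 to 37.3 CPM in tumours (median 30.7), against 70.1, 61.6 and 61.2 CPM in the control cultures, and fell to 0.493 of the control level (edgeR adjusted p = 4.21e-08). Ube2c fell by 0.49 on the log2 scale (SE 0.12, edgeR adjusted p = 0.00172), and Cdc20 and Espl1 did not pass (0.01 ± 0.11 and 0.02 ± 0.09, edgeR adjusted p = 0.962 and 0.845).

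Of the 33 calls, 22 (3 higher and 19 lower) were kept under all 20 alternative settings, and 28 (4 higher and 24 lower) when any single library was left out. With WT control tumours alone against the control cultures, 3 genes were higher and 27 lower, and Plk1, Nuf2 and Cenpe lost their calls. Over all genes, 5267 were higher and 4442 lower in that setting. The NET comparison and this comparison share the control cultures. Set side by side, Mki67 had -0.83 ± 0.07 in NET cultures and 0.13 ± 0.10 in tumours, and Foxm1 had -0.47 ± 0.09 in NET cultures and 0.89 ± 0.10 in tumours. Bub1 had 0.59 ± 0.09 in NET cultures and -0.88 ± 0.09 in tumours, and Cdc25b had -0.31 ± 0.08 in NET cultures and -1.90 ± 0.10 in tumours.

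Among related genes in tumours against control cultures, 15 of the 81 other mitosis genes were higher and 45 lower (median -0.27), whereas 24 of the 54 S phase genes were higher and 16 lower (median 0.17). Tuba1b, an alpha-tubulin, averaged 348 ± 18.6 CPM in tumours (SD, n = 8) and 63.9 ± 3.96 CPM in the control cultures (SD, n = 3), a log2 fold change of 2.44 ± 0.07 (edgeR adjusted p = 7.07e-12). Ran, a GTPase of nuclear transport and spindle assembly, had 1.38 ± 0.07, while Ncapd3, a condensin II subunit, and Iqgap3, a scaffold protein, had -1.38 ± 0.05 and -1.64 ± 0.09. In the S phase list, Cdc6 had 1.14 ± 0.07 and Fen1, a flap endonuclease, 1.73 ± 0.10, while Lig1, DNA ligase I, had -0.82 ± 0.06 and Pold2, a DNA polymerase delta subunit, -0.89 ± 0.08. E2f1 did not pass (-0.10 ± 0.15, edgeR adjusted p = 0.572). Of the 29 regulators, 11 were higher and 12 lower, with Ccnd1, cyclin D1, at 1.55 ± 0.13 and Nfyc, a subunit of NF-Y, at 1.504 ± 0.13. Rbl2, the pocket protein p130, and E2f2 had -1.15 ± 0.06 and -1.75 ± 0.12. Mybl2 was higher by 0.30 ± 0.12 (edgeR adjusted p = 0.0402) and Trp53 by 0.46 ± 0.07 (edgeR adjusted p = 6.2e-05), and Cdkn1a did not pass (-0.20 ± 0.14, adjusted p = 0.212). Of 22 genes of the anaphase-promoting complex and cohesin, 10 were higher and 3 lower, with Anapc10 at 1.33 ± 0.11, Stag1, a cohesin subunit, at 0.73 ± 0.06, and Anapc5 and Anapc1 at -0.38 ± 0.06 and -0.40 ± 0.07.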

How the data were processed

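RNA libraries of total RNA extracted with TRIzol were described for 14 samples, grouped by treatment and host from the labels. The deposited tables hold raw counts of reads for each gene symbol. The authors made them with Trimmomatic, STAR and the mouse build mm10, per the submitters' processing notes. Tool versions and options, the annotation and the kit: not given in the sources used here. The unstranded count column was used. Reads matching no gene feature (12.1 to 24.0% of reads) and other lines that name no gene stayed out of library sizes and tests.

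Genes were tested in R 4.3.3 by edgeR 4.0.16 (glmQLFTest, the quasi-likelihood test, after filterByExpr, TMM scaling and robust fits) with Benjamini-Hochberg adjustment at 0.05, in a fit of the 6 culture libraries (residual df 4), of the 8 tumour libraries (residual df 4) and of all 14 libraries in 6 groups (residual df 8) for tumours against control cultures. CPM levels use the TMM factors of whichever fit is named beside them. SE is of the log2 fold change, from the F statistic. Reads were not counted by molecular identifier here, so they need not be independent molecules. Tests were checked on simulated counts. Alternatives were RLE factors, library totals, no filter, DESeq2 1.42.0, the larger strand-specific column, the replicate number as a block, leaving out each library, and, as they apply, other sets of libraries and limma 3.58.1 voom. Tumours of hosts without laparotomy against control cultures was added after the data were seen. No replicate pair agreed within sampling noise (chi-square per degree of freedom 2.74 to 47.7).

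The members and lists were chosen with earlier results of these data known. Values in every library are given for Mki67, Ccnb1, Cdk1, Plk1, Foxm1 and Top2a, for the 2 members with the smallest p in each direction in each comparison, and for the largest change of each role list in NET cultures. Of the other lists, the 2 genes with the smallest p in each direction are named, with Mybl2, E2f1, Trp53 and Cdkn1a. Further members are named to account for each role list. Gene positions and exon lengths are from the GENCODE M21 annotation of GRCm38, and promoters are from RefSeq.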

Additional observations from a re-analysis of the deposited data

How the results depend on the processing

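Counts of mitotic genes called moved with these alternatives. For NET against control cultures, library totals gave 7 higher, and leaving out 1 library at a time gave 10 to 19 higher and 7 to 11 lower. Over all genes, library totals gave 1640 higher and 4777 lower. Leaving out 1 library gave 2481 to 3070 higher and 2525 to 3241 lower over all genes, beside 3093 and 3270 with every library. For laparotomy in WT hosts, DESeq2 called 3 higher, the fit of all 14 libraries 6, and leaving out 1 library 0 to 1. Over all genes the calls went up too, to 1226 with DESeq2, 1450 with all 14 libraries and 512 without WT control replicate 1, against 8 with the 8 tumour libraries in edgeR. For laparotomy in KO hosts DESeq2 and the fit of all 14 libraries each called 1 higher (5.5% and 7.85% of all genes called). For the difference between laparotomy effects they called 1 and 2 lower (7.84% and 11.1%), and leaving out 1 library gave 0 to 1. For KO against WT control tumours they each called 1 lower (5.22% and 7.25%), and for KO against WT laparotomy tumours 1 and 2 (4.03% and 4.94%). For tumours against control cultures, WT control tumours alone gave 3 higher, beside 5267 higher over all genes. Tumours of hosts without laparotomy gave 3, beside 5508. Leaving out 1 control culture gave 4 to 5 higher and 25 to 26 lower, beside 4966 to 5105 and 4511 to 4655 over all genes. With every library, 5561 were higher and 5010 lower over all genes. DESeq2 differs in how it estimates the spread, and the fit of all 14 libraries has more residual degrees of freedom. That fit also pools the spread of cultures and tumours, so its tests can be too optimistic for tumours. Its common coefficient of biological variation was 0.187, beside 0.0633 for cultures and 0.278 for tumours. The cause of each change was not tested. Where leaving out a library left a group with 1, that library was assumed to vary like the others.

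Signs changed only for genes that did not pass, among the genes with values in every library. In NET cultures, library totals gave -0.023 for Ccnb1 and -0.13 for Plk1, and leaving out 1 library put Plk1 between -0.054 (without control replicate 1) and 0.0997, with -0.049 without NET replicate 3. Ttk for laparotomy in KO hosts ran from -0.35 to 0.014 (without KO control replicate 2), and Cdc20 in KO against WT laparotomy tumours from -0.0070 (without KO laparotomy replicate 2) to 0.496. Ccnb1 in tumours against control cultures was -0.0084 with library totals, -0.0031 with voom, -0.021 with WT control tumours alone, -0.16 with tumours of hosts without laparotomy, and -0.058 to 0.078 leaving out 1 library at a time. Among called genes in NET cultures, library totals turned Bub1b to -0.0070.

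Whether the replicate numbers pair the samples is not known. Deviations of same-numbered culture libraries correlated at 0.09, 0.09 and -0.03, and those of tumour groups at -0.12 to 0.36. The highest value was between WT control and KO control tumours. With 2 libraries a group the deviations are mirror images of each other, so the tumour values cannot decide the question. With the replicate block, NET cultures had 15 mitotic genes higher and 11 lower, and the 5 tumour comparisons 0 in each direction. Tumours against control cultures had 5 mitotic genes higher and 19 lower with the block. The calls of Ccna2, Ccnb2, Ttk, Aurka, Birc5, Cenpe, Top2a, Smc4 and Ube2c were lost there. Calls over all genes fell too in tumours against control cultures, to 4060 higher and 3896 lower, against 5561 and 5010 without the block. Every gene had at least 181 counts in every library, and how far sampling at that depth adds to the spread was not tested. The variation between libraries (edgeR's common coefficient), part of which can be technical, came to 0.278 for tumours and 0.0633 for cultures.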
